A study of Capra hircus with 4 samples.

Results

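RAB11FIP4 is a protein-coding gene that the deposited tables place on goat chromosome 19, and TCONS_00183980, a long non-coding RNA (lncRNA) transcript, lies 1849 bp from it. The gene was chosen by its symbol in the table of predicted cis targets, with the earlier results of its lncRNA and of its own transcripts known. The lncRNA transcripts were then selected by position, as all those whose locus lay within 100 kb of the RAB11FIP4 locus. They numbered 18 of the 226416 lncRNA transcripts in the deposited table, and 3506 of that table lay on chromosome 19. The RNA came from the endometrium of Xinong Saanen dairy goats that were 24 months old, had borne kids before, had their estrus synchronized and were mated naturally. Gestational day 15, called receptive, and gestational day 5, called pre-receptive, had 2 libraries each, made from ribosomal RNA-depleted total RNA with strand information kept. The sample information gives 10 goats for each stage, and the labels do not state how many goats went into a library.

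The deposited comparison, titled as one between receptive and pre-receptive endometrium, sets a group of libraries called T against a group called C. The labels and headers do not tie either letter to a stage. Every direction below is thus set T relative to set C, with no stage assigned. The columns of values per library carry names that match no sample label, so levels per library are not analysed here, and no spread between libraries was computed. Each p and q is from the authors' own comparison. Library depth is unknown here. In whole endometrium, fewer cells of a type and less RNA per cell cannot be told apart. Markers of epithelium, stroma, endothelium, smooth muscle, leukocytes and trophoblast could be looked for only among the predicted targets, where 1 of 30 was present (MS4A1, a B cell marker), so the tissue label was not checked against its markers.

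RAB11FIP4 encodes a Rab11 family interacting protein. In human cells, these proteins bind the small GTPase Rab11 on recycling endosomes, the compartments from which internalized receptors and membrane are sent back to the cell surface. RAB11FIP4 and its close relative RAB11FIP3 also bind the GTPase ARF6, carry EF-hand motifs of the kind that bind calcium, and are found at the cleavage furrow and midbody, the bridge between daughter cells at the end of division. The surface membrane of the lining epithelium of the uterus is known to be remodelled around the time of implantation. A predicted cis target is a gene that lies near a lncRNA, and nearness alone does not show that the lncRNA acts on it.

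The 18 lncRNA transcripts lay on both sides of the gene, and none overlapped it. The RAB11FIP4 locus (gene 102189066) ran over 78105 bp, from 17862402 to 17940506 on chromosome 19, in the deposited coordinates, whose build no source used here names. On the side of lower coordinates there were 13 transcripts, with gaps of 1849 to 90762 bp to the gene, and on the side of higher coordinates 5, with gaps of 5330 to 40152 bp. Strand is not given in the tables used, so neither side can be called upstream or downstream. All 18 had class code u, the code for intergenic transcripts that overlap no reference gene. That code held 98.3% of the whole table, so the shared class does not set these transcripts apart. The antisense exonic class x and the classes j and o, which share a junction or overlap an exon, had 0 transcripts here, against 3171, 581 and 91 in the whole table.

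**Figure D1:**
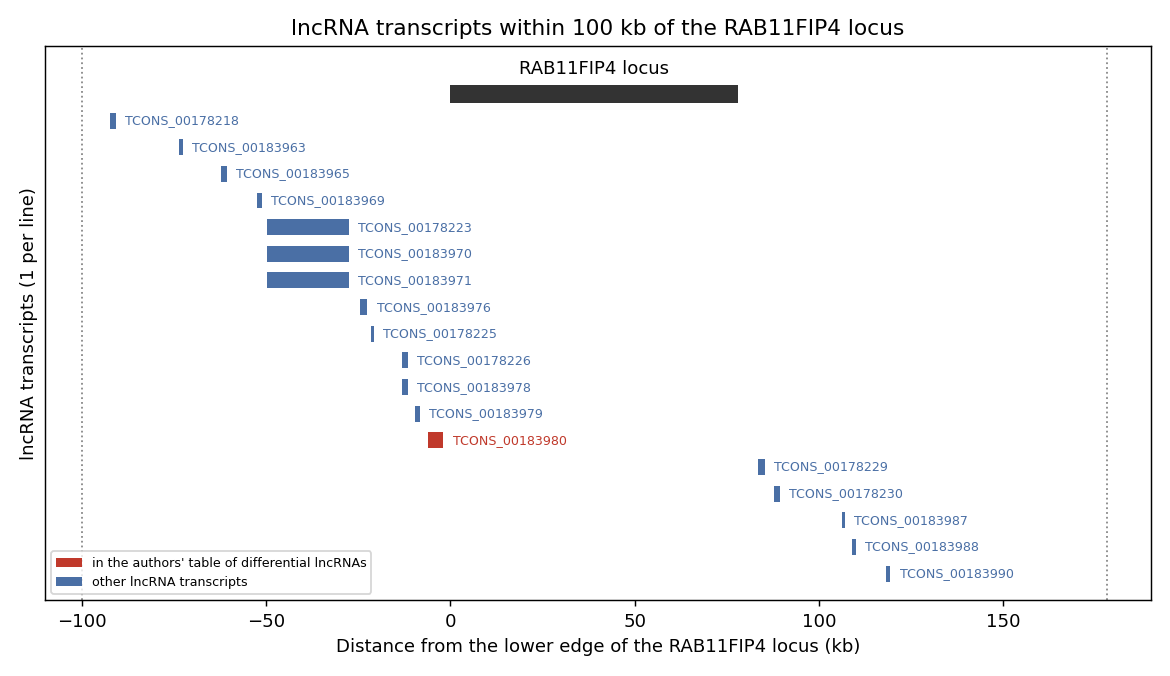
Map of the RAB11FIP4 locus (black) and the 18 lncRNA transcripts within 100 kb, with 1 line for each transcript and the distance in kb from the lower edge of the gene's locus on the x axis. Bars show the deposited locus of each transcript, widened to 0.8 kb where shorter, red marks TCONS_00183980, and dotted lines mark 100 kb from the gene. The red bar is the one nearest to the gene, and 13 of the 18 bars lie on its side.

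TCONS_00183980 was the nearest of all 18, with a locus from 17856467 to 17860553 on chromosome 19. The next nearest were TCONS_00178229 at 5330 bp and TCONS_00178230 at 9653 bp on the far side, and TCONS_00183979 at 8334 bp on the same side as TCONS_00183980. These 4 were the transcripts within 10 kb of the gene, and 14 of the 18 were within 50 kb. The side of lower coordinates was the denser one. Of 621 successive stretches of 100 kb along chromosome 19, the median held 5 lncRNA transcripts, and 70 of them (11.3%) held 13 or more. The 5 transcripts on the side of higher coordinates equalled that median. The stretches ran over the whole chromosome, bodies of reference genes included, which class u transcripts do not overlap. They are thus not like for like with the flank of a gene.

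The selection by distance ended in an empty stretch. The farthest transcripts kept were TCONS_00178218 at 90762 bp before the gene and TCONS_00183990 at 40152 bp after it. The nearest left out were TCONS_00183960 at 114115 bp before and TCONS_00183998 at 236488 bp after. Beyond TCONS_00183990, the side of higher coordinates thus held no lncRNA transcript of the table up to TCONS_00183998. What else was assembled in that stretch is not analysed here.

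The 18 transcripts came from 15 distinct loci. TCONS_00178223, TCONS_00183970 and TCONS_00183971 shared the interval from 17812599 to 17834801, and TCONS_00178226 and TCONS_00183978 shared the one from 17849374 to 17850811. In both cases transcripts assigned to different genes of the assembly shared an interval, so the deposited locus is the extent of a cluster of transcripts and can be longer than the transcript itself. Sharing an interval with any other lncRNA transcript, of the same or another gene of the assembly, was found for 5 of the 18 transcripts (27.8%). In the whole table it was found for 28.7%. The shared locus of 22203 bp was the longest here. The shortest was that of TCONS_00183988, with 876 bp. The locus of TCONS_00183980 was longer than 92.3% of the loci in the whole table at 4087 bp, and it was the longest of the 13 loci that held a single transcript. The median locus was 1438 bp for the 18 transcripts and 1425 bp for the whole table.

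The transcript numbers fell into 2 series along the same stretch. One series ran from 178218 to 178230 and held 6 of the transcripts, and the other ran from 183963 to 183990 and held 12. Within both series the numbers rose with position. TCONS_00183980 and the RAB11FIP4 transcripts TCONS_00183983 and TCONS_00183984 belonged to the second series, in which 14 of the 28 numbers appeared neither among the lncRNAs nor among the targets of RAB11FIP4. The files do not say what separates the series.

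Coding potential did not set the transcripts near RAB11FIP4 apart from other lncRNAs. CPC and CNCI are scores in which values below 0 mean non-coding, and the table holds transcripts classed as lncRNAs. The highest CPC score in the whole table was -1, and the highest CNCI score was -0.00041. The median CPC score was -1.13 for the 18 transcripts and also -1.13 for the whole table. The CPC scores near the gene ranged from -1.27 for TCONS_00183976 to -1.001 for TCONS_00178225. TCONS_00178225 lay at the 99.6th percentile of all transcripts, close to the upper limit of the table. For TCONS_00183980 the CPC score was -1.10, at the 62.3rd percentile. Its CNCI score of -0.0455 lay at the 37.4th percentile, and the median CNCI score was -0.0326 near the gene and -0.0328 in the whole table. The lowest CNCI score near the gene was that of TCONS_00178229, at -0.106. TCONS_00183969 and TCONS_00178225 had the highest, -0.00041, which equalled the highest of the whole table.

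**Figure D2:**
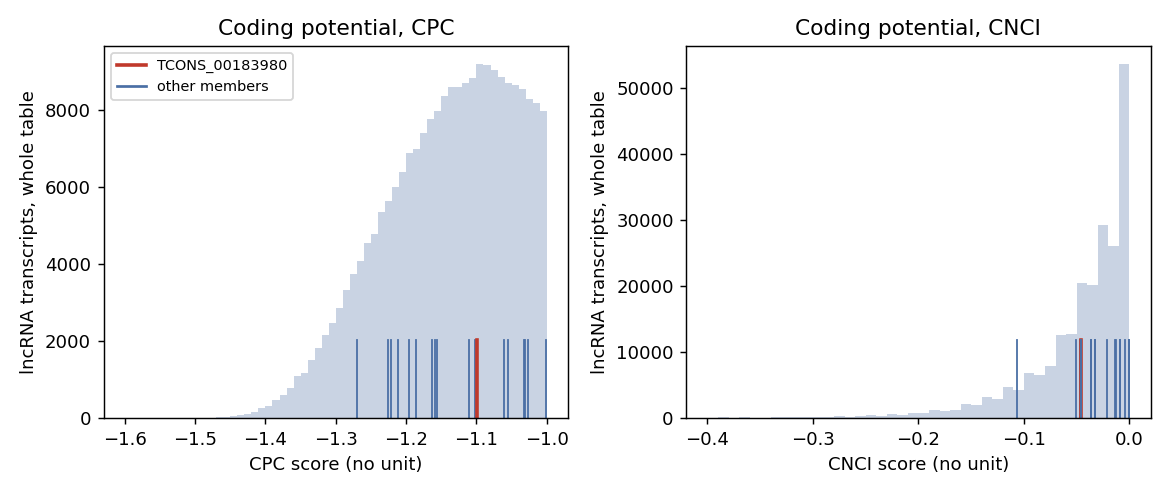
Histograms of the CPC score (left) and the CNCI score (right, drawn from -0.4 to 0) of the lncRNA transcripts of the whole table, with the number of transcripts on the y axis. Short vertical lines mark the 18 transcripts near RAB11FIP4, with TCONS_00183980 in red. The lines spread through the bulk of both histograms, and TCONS_00183980 stands at -1.10 for CPC and -0.0455 for CNCI.

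Of the 18 transcripts, TCONS_00183980 was the 1 that the authors called different between the sets, where a call is a row of their table of differential lncRNAs. Over the whole table, 0.295% of the lncRNA transcripts were called in either direction, and 0.118% were called lower in set T. Because the gene was chosen with this call known, the count of 1 is a description and nothing is read from it. By the authors' deposited table, TCONS_00183980 was 8.48-fold lower in set T than in set C (log2 change -3.08, p = 5e-05, q = 0.0365). The other 17 transcripts near the gene, TCONS_00183979 with its gap of 8334 bp included, were not in that table. Absence from it does not show that their levels were alike in both sets.

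Among the 237 lower calls with both sets above 0, the change of TCONS_00183980 was the 32nd largest, against a median log2 change of -1.94 in the authors' deposited table. TCONS_00183980 differed more from the other calls in its q, which was known when the gene was chosen. In the authors' deposited table, 12 of the 668 calls had a q under 0.05 (0.0053% of all lncRNA transcripts), and 2 of these 12 were lower in set T. All 12 carried the same p of 5e-05, the smallest p in the authors' deposited table, so their order by p cannot be told apart. Of the 12, 3 had both sets above 0. They were TCONS_00398292 on chromosome 6 (log2 change -3.39), TCONS_00183980 and TCONS_00216353 on chromosome 20 (log2 change 3.84), from the authors' deposited table.

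**Figure D3:**
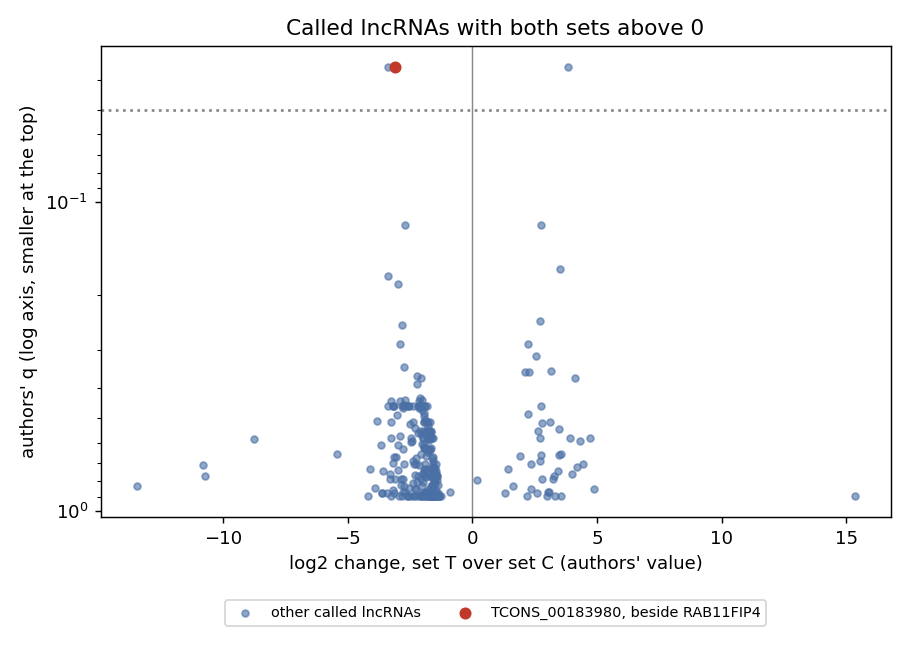
Called lncRNAs with both sets above 0 (284 transcripts), with the authors' log2 change of set T over set C on the x axis and their q on a log axis, smaller at the top. The dotted line marks a q of 0.05. TCONS_00183980 (red) is 1 of the 3 points beyond it, at a log2 change of -3.08.

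TCONS_00183980 had no other call near it. In the authors' deposited table, 12 lncRNAs on chromosome 19 were called, 6 higher and 6 lower in set T. TCONS_00183980 was the 1 with a q under 0.05, a value known when the gene was chosen. The nearest other call was TCONS_00177986, 3.92 Mb away. Its predicted targets were AP2B1, GAS2L2, MMP28 and RASL10B. It lay 5705 bp from the peptidase gene MMP28 and 57875 bp from the clathrin adaptor gene AP2B1. The authors' deposited table gave it a log2 change of -3.41 with a q of 0.872. On the other side the nearest call was TCONS_00179505, 13.9 Mb away. Of all 267 lower calls, 115 (43.1%) likewise had no other call within 100 kb, and the median gap to the nearest other call was 41.7 kb.

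RAB11FIP4 itself had 2 transcripts among the predicted targets, and they did not point the same way. The authors' deposited table listed TCONS_00183983 lower in set T (p = 0.00275) and TCONS_00183984 higher (p = 1). A p of 1 was listed for 549 of the 816 target transcripts that had a direction (67.3%), and the headers do not say whether these were tested. After Benjamini-Hochberg adjustment over all 816, TCONS_00183983 had an adjusted p of 0.173 and did not pass 0.05. It ranked 13th by p among the 816 and 11th among those listed lower. A p under 0.05 was listed for 4.41% of the target transcripts in either direction, 32 of them lower and 4 higher, and an adjusted p under 0.05 was reached by 0.98%. The size of the change of either RAB11FIP4 transcript is not given in the tables used here, so no fold change of the gene can be stated.

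Such a pattern of transcripts was common among the targets. Of the 36 target genes with a transcript of p under 0.05, 31 had 2 or more transcripts with a direction, and in 26 of these every other transcript had a p of 1. Of all 240 target genes with 2 or more such transcripts, 98 had some listed higher and some listed lower.

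The pair of TCONS_00183980 and RAB11FIP4 was also a simple one. TCONS_00183980 had RAB11FIP4 as its single predicted target gene, as 157 of 255 called lncRNAs with a target had a single one, and RAB11FIP4 had no other called lncRNA, as did 342 of 387 target genes. The authors placed the pair in their class of 10 kb, which held 200 of 1009 pairs. The gap of 1849 bp was below the median gap of 8.53 kb to the nearest target, and 61 of the 255 lncRNAs lay closer to a target. Of the 12 calls with a q under 0.05, 7 had a predicted target, and a p of the target was listed for 5 of these 7. By the authors' deposited table, RAB11FIP4 was the 1 of the 5 with a target transcript of p under 0.05. These values belong to the comparison by which the gene was chosen and are given as a description.

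Several other targets also lay beside a lncRNA lower in set T while a transcript of their own was listed lower, so the pairing was not particular to RAB11FIP4. By the log2 change of the lncRNA, the nearest were TCONS_00213775 beside RCC2, a regulator of chromosome condensation family member (-3.06), TCONS_00236882 beside ANPEP, the membrane peptidase aminopeptidase N, and AP3S2, an adaptor subunit of vesicle transport (-3.03), and TCONS_00155184 beside DDT and CABIN1 (-3.19), from the authors' deposited table. Their q was 0.457 to 0.671 in the authors' deposited table, so none of these 3 lncRNAs passed 0.05. TCONS_00155184 had 6 predicted target genes, tied in this order, and the list was cut at 5 genes. DDT and CABIN1 were among those tied, and the nearest target of TCONS_00155184 had a gap of 9363 bp. The gaps were 86839 bp for RCC2, 231 bp for ANPEP, 30351 bp for AP3S2, 39501 bp for DDT and 51015 bp for CABIN1. Of these, the gap of ANPEP alone was shorter than that of RAB11FIP4. Beside, here and below, means being a predicted target of the lncRNA, whatever the gap. For both ANPEP and DDT, the authors' deposited table gives a lower transcript at p = 5e-05 (adjusted p = 0.00583), and both values are smaller than those of RAB11FIP4. The smallest p in the authors' deposited table was 0.0211 for AP3S2 (adjusted p = 0.636), 0.185 for CABIN1 and 1 for RCC2. By the p of a transcript listed lower, the nearest were those of DSG2, a desmosomal cadherin (0.0022), CCNB1, the mitotic cyclin B1 (0.00195), F3, tissue factor (0.0035), CERS4, a ceramide synthase (0.0052), and the death receptor gene TNFRSF10B (0.0012), in the authors' deposited table. The adjusted p of these 5 lay between 0.109 and 0.283, so they did not pass either. CERS4 and DSG2 came close in both values, DSG2 by 1 of its 2 called lncRNAs, TCONS_00264762 with a gap of 10178 bp. The other, TCONS_00271126, had a shorter gap of 3784 bp and a log2 change of -2.11 in the authors' deposited table. The authors' deposited table gives a log2 change of -2.95 for the lncRNA of CERS4, -2.74 for TCONS_00264762 beside DSG2, and -1.56 for the lncRNA of F3. The lncRNA of CCNB1 was lower and that of TNFRSF10B higher in set T, each with a set at 0 and so no finite log2 change. The lncRNAs of the 5 genes had q values of 0.454 to 0.894 in the authors' deposited table.

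RAB11FIP4 carried 11 GO terms, and most of its own functions were represented by it alone. ADP-ribosylation factor binding, Rab GTPase binding, endocytic vesicle, cleavage furrow, recycling endosome membrane, cytokinesis and midbody each counted 1 lncRNA, TCONS_00183980, and no other target gene. Their p in the authors' deposited table ran from 0.0576 for ADP-ribosylation factor binding, with 0.0593 lncRNAs expected from the background, to 0.585 for midbody, with 0.876 expected. By the authors' deposited table, calcium ion binding was the 1 of the 11 terms to pass an unadjusted 0.05 (p = 0.0486), with 15 lncRNAs of 200 against 9.33 expected. Of all 744 terms, 153 had such a p. Adjusted over the 744 terms, calcium ion binding had 0.236 and did not pass, and 20 other terms did.

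**Figure D4:**
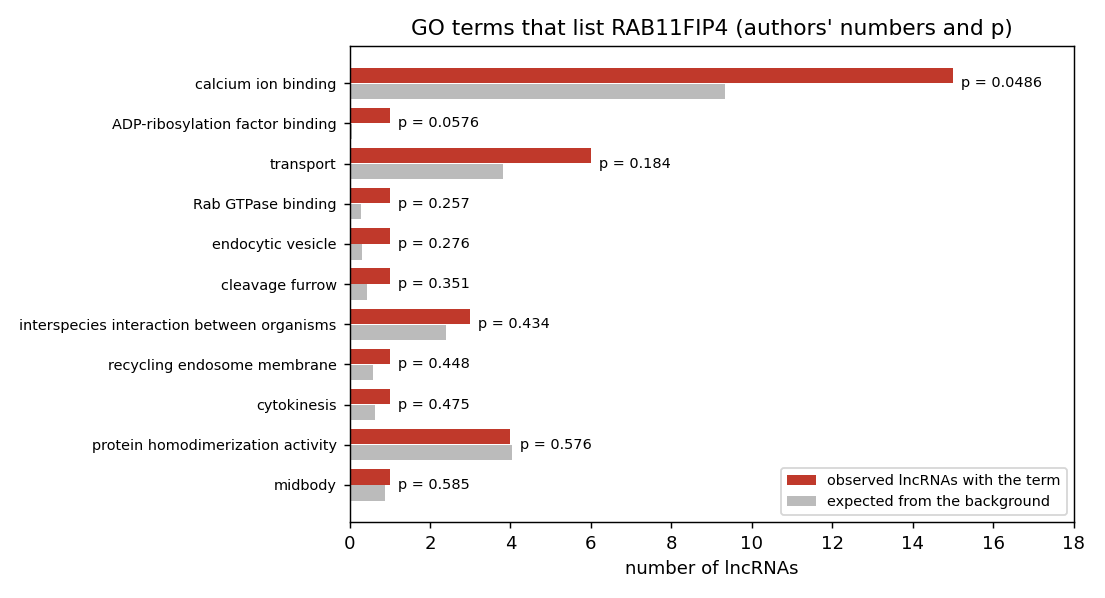
Number of called lncRNAs with each of the 11 GO terms that list RAB11FIP4 (red) above the number expected from the authors' background (grey), with the authors' p beside the bars. Calcium ion binding has 15 against 9.33 expected, and the 7 terms with a single lncRNA have TCONS_00183980 alone.

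The genes that share the calcium term with RAB11FIP4 include cadherins, secreted proteins, enzymes and transporters. The deposited table lists 33 genes under the term, but 13 of them, RAB11FIP4 included, carried the term themselves. The others are listed because a lncRNA they share with such a gene is counted. The 13 genes were beside 15 lncRNAs, 11 lower and 4 higher in set T. Beside lower lncRNAs lay the desmosomal cadherin genes DSG2 and DSG3, NINL (a centrosomal protein), LRP2 (the endocytic receptor megalin), LTBP3 (a binding protein of latent TGF-beta), MMP28, SLC25A13 (a mitochondrial carrier) and LOC102173451, besides RAB11FIP4. Beside higher lncRNAs lay CAPN11 (a calpain protease), the gene labelled GLA (its identifier 100861188 belongs to BGLAP, which encodes osteocalcin, in the RefSeq table), MAN1A1 (a mannosidase of glycoprotein processing) and PCDH15 (a protocadherin). A transcript with p under 0.05 was listed for 3 of the 13 genes, all lower, namely NINL (p = 5e-05, adjusted p = 0.00583), DSG2 (p = 0.0022, adjusted p = 0.15) and RAB11FIP4, from the authors' deposited table. Of these genes, NINL passed the adjusted threshold. Among all 337 target genes with a direction, 36 had a transcript with p under 0.05. Of the target transcripts with such a p, 32 were listed lower and 4 higher. By the authors' deposited table, RAB11FIP4 was the 1 of the 13 whose lncRNA passed a q of 0.05. The gene was chosen with its p and this q known, so both are given as a description.

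Transport, interspecies interaction between organisms and protein homodimerization activity were the other shared terms. Transport was also carried by TMED9, a cargo receptor of the early secretory pathway, NDUFA7, a subunit of mitochondrial complex I, SLC25A27, a mitochondrial carrier, and ATCAY. The second of these terms was carried by the innate immune kinase gene TBK1 and by UCKL1, and carriers of the third included ECE1, the endothelin converting enzyme, and LOC102184716. The p of these 3 terms was 0.184, 0.434 and 0.576 in the authors' deposited table. With TCONS_00183980 included, transport counted 4 lncRNAs higher and 2 lower in set T. The second term counted 1 higher and 2 lower, and the third 3 higher and 1 lower. For NDUFA7, the authors' deposited table listed a lower transcript at p = 0.0083 (adjusted p = 0.376). Of the 21 other genes that carried any of the 11 terms, each shared 1 term with RAB11FIP4.

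Endocytosis was the 1 KEGG pathway that listed RAB11FIP4, at the 73rd place of 146 pathways (p = 0.547 in the authors' deposited table). By the authors' annotation, 8 target genes carried it. Besides RAB11FIP4, those beside lower lncRNAs were AP2B1, which encodes a subunit of the clathrin adaptor of endocytosis, OPA1, CHN2 and ZC3H4. Those beside higher lncRNAs were USP8, which encodes a deubiquitinase acting on endosomes, SYNE2 and LOC102174305. USP8 and LOC102174305 shared 1 lncRNA, TCONS_00034246, and the lncRNA of SYNE2 had a log2 change of 0.198. The lncRNAs of these genes other than RAB11FIP4 had q values of 0.367 to 0.894 in the authors' deposited table, so none passed 0.05. RAB11FIP4, chosen with its p known, was the 1 of the 8 with a transcript of p under 0.05, which is a description. Among all 337 target genes with a direction, 36 had such a transcript. The smallest p was 0.0616 for CHN2 and 0.173 for USP8 in the authors' deposited table, and 1 for AP2B1.

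None of the other genes listed for recycling endosomes was a predicted target, and few genes of any kind were. Of 53 such gene symbols, among them RAB11A, RAB11B, the other RAB11FIP genes, the EHD family and the exocyst subunits, 0 were predicted targets. The same count of 0 was found for 29 symbols of cytokinesis and the midbody. The RefSeq table held 51 of the 53 symbols and 26 of the 29. Matching was by symbol, so a gene deposited under another name would be missed. Of the 20572 protein-coding genes in the RefSeq table, 1.41% were predicted targets, so counts of 0 in lists of this length do not set the lists apart. The 14 genes listed as neighbours of RAB11FIP4 in mammals are not counted, since the 1 called lncRNA near the gene had RAB11FIP4 as its single target. Only genes with a called lncRNA nearby can be predicted targets, which means that the counts say nothing of how the lists were expressed. The 1 other target with a RAB symbol, RAB3B, a GTPase of regulated secretion, was noticed after its values were seen. Its lncRNA TCONS_00329969 lay 120 bp away and was lower in set T (log2 change -2.28, q = 0.848), and both RAB3B transcripts had p = 1 in the authors' deposited table.

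The authors also deposited short lists without values, and RAB11FIP4 was on them. The pair of TCONS_00183983 and TCONS_00183980 was 1 of 39 pairs on the list for GO terms, whereas the pair with TCONS_00183984 was not on it. RAB11FIP4 was 1 of 26 genes on the matching gene list, and calcium ion binding was 1 of the 56 terms on the term list. All 26 genes had a target transcript with p under 0.05, and these were the same genes as all 26 with such a transcript under the 56 terms. They were also the same as the 26 genes whose target and lncRNA had the same direction, with term p and target p under 0.05. Calcium ion binding was the 1 of the 11 terms of RAB11FIP4 on the term list. Its terms for recycling endosomes and cytokinesis were not on it. The gene list thus equalled the set with the same direction and with term p and target p under 0.05. The lists carry no values, and whether the authors made them by these thresholds is not known here. It was also on both symbol lists deposited with the KEGG pathways, which held 242 and 29 symbols.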

How the data were processed

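The study measured RNA of goat endometrium in 4 libraries, 2 of gestational day 15 and 2 of gestational day 5. The submitters' processing notes name TopHat, TopHat2, Cufflinks and Cuffdiff without version or role, and no source used here names the genome build. The authors deposited 1 CPC score and 1 CNCI score for each transcript. They also deposited log2 fold changes of set T over set C, per the file headers, and each p-value and q-value comes from the authors' own comparison or enrichment test. The 4 columns of values per library and the 2 columns of set means (6 in all) match no sample label or labelled group and were not used. The planned limma fit was therefore not run. Depth is unknown here.

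Gaps were computed edge to edge from the deposited positions. Directions and p-values of target transcripts were taken from the deposited GO and KEGG tables. Their lncRNA p equalled that of the table of differential lncRNAs for 208 of 208 lncRNAs (tolerance 1e-09). Benjamini-Hochberg adjustment ran over the whole table, and was checked on simulated data. Fisher or other tests of the members were not made. Percentiles are shares of all 226416 transcripts at or below a value. Gene identifiers were looked up in a RefSeq gene table of assembly ARS1.2, used for names only, which held 353 of 386 target gene identifiers, RAB11FIP4 among them. For 34 of the target genes it gave another symbol; the deposited symbol is used. No sequence was used.

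The members, lists and named genes were chosen with earlier results of these data known. Named genes were the called lncRNA, both target transcripts, the nearest, farthest, longest and shortest transcripts, list members among the targets, and 5 genes nearest in lncRNA log2 change and 5 nearest in target p. Genes that share a term were added after their values were seen. Python 3.11.15, numpy 2.4.6, pandas 2.3.3 and matplotlib 3.10.9 were used.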

Additional observations from a re-analysis of the deposited data

How the results depend on the processing

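The number of lncRNA transcripts near RAB11FIP4 follows the window, with 14 within 50 kb, 18 within 100 kb and 31 within 200 kb, and 15 when gaps were measured between midpoints. It was also 15 when each locus was counted once, an alternative chosen after seeing the data. TCONS_00183980 was the 1 call in each window and also with the authors' q under 0.05. The adjusted p of TCONS_00183983 was 0.173 over 816 target transcripts, 0.0565 over the 267 with p under 1, and 1 by Bonferroni, so it passed 0.05 in none of these. No paired analysis was possible because the columns per library match no sample label, and for the same reason the planned fits with another pseudocount, without a filter on low values and leaving out each replicate were not run. The spread between goats, and whether 1 library decides the change of TCONS_00183980, are not known from the values used here.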
